A study of Homo sapiens with 3 samples.

Results

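The expression of CDKN2A, SMAD4, ARID1A, RNF43 and KDM6A, genes that recur as drivers of pancreatic cancer, was followed in PANC-1 cells. CDKN2B and MTAP lie next to CDKN2A and were followed with them, and all 7 are called driver genes below for short. They are 7 of the 51136 genes in the count table and were chosen by name. PANC-1 is an epithelial line grown from a human pancreatic ductal carcinoma, and all libraries came from this single line. The control cells received no agent, the Rg3 cells received ginsenoside Rg3, a ginseng saponin, at 200 μM for 24 h, and the TAM cells received tamoxifen, an estrogen receptor modulator, at 50 μM for 24 h. Each condition had 1 RNA-seq library, so no value has a replicate, no test across conditions can be made, and every interval below covers counting error only. The libraries held 11300766 counted reads for control, 12861693 for Rg3 and 11321442 for TAM. Of the epithelial markers, KRT8 had 7817 to 15329 reads, KRT18 had 7406 to 13162, KRT19 had 181 to 665, KRT7 had 93 to 345 and EPCAM had 8 to 26. The mesenchymal marker VIM had 39783 to 55276. The leukocyte marker PTPRC, the endothelial marker PECAM1, the acinar markers PRSS1 and CPA1 and the islet marker INS had at most 1 read in any library. The fibroblast markers differed, with at most 1 read for DCN and 734 to 1853 for COL1A1.

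These genes work in separate pathways. CDKN2A encodes p16INK4a and, from another first exon and reading frame, p14ARF. The p16INK4a protein and its neighbor p15INK4b, encoded by CDKN2B, inhibit the cyclin D kinases CDK4 and CDK6 and so keep the RB protein active, and p14ARF restrains MDM2. MTAP, next to CDKN2A on the short arm of chromosome 9, recycles methylthioadenosine to methionine and adenine and is often lost together with CDKN2A. SMAD4 is the common partner of the receptor-activated SMAD proteins in TGF-beta and BMP signaling. ARID1A is a subunit of the BAF chromatin remodeling complex, KDM6A removes methyl groups from lysine 27 of histone H3 and belongs to the MLL3 and MLL4 complexes, and RNF43 is a ubiquitin ligase that takes Wnt receptors of the Frizzled family off the cell surface.

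The sequences just before the start sites are given for MTAP, which had reads, and for CDKN2A, CDKN2B and RNF43, which had almost none. They are from RefSeq (GRCh38.p14), are written 5′ to 3′ on the strand of the gene, and have every CG dinucleotide in capitals, since CG dinucleotides are the usual sites of DNA methylation. For each, only the longest run free of annotated exons within the 250 bases before the start is given. For CDKN2A this leaves out non-exonic bases too, and 157 bases with 17 CG are printed. The stretches are chr9:21802386-21802542 on the plus strand for MTAP, chr9:21995325-21995481 on the minus strand for the start of the p14ARF transcript of CDKN2A, chr9:22009364-22009555 on the minus strand for CDKN2B and chr17:58417596-58417784 on the minus strand for the first start of RNF43.
MTAP: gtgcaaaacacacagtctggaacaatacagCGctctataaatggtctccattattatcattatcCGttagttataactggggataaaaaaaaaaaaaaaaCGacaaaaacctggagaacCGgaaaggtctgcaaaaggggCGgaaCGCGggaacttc
CDKN2A: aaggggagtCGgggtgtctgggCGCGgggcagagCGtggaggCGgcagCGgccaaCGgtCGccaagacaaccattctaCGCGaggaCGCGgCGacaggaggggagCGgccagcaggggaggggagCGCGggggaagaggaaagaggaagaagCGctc
CDKN2B: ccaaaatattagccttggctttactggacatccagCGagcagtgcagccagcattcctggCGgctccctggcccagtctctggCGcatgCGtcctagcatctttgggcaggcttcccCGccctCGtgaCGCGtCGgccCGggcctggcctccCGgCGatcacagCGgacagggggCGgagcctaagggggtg
RNF43: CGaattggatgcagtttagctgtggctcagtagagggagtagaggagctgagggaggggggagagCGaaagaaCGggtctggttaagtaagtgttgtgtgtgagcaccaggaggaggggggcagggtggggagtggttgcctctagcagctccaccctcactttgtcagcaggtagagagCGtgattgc

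Over the full 250 bases before the start, CG (the same letters on both strands) occurred 11 times for MTAP, 24 times for CDKN2A, 18 times for CDKN2B and 4 times for RNF43. The median over 35116 promoters was 11, and 93.9% of them held at least 1 CG. At these starts CDKN2A had more CG than 76.3% of promoters, CDKN2B more than 63.2%, MTAP more than 49.7% and RNF43 more than 29.3%. A second start of CDKN2A, where 241 of the 250 bases are exonic, had 20 CG, more than 67.6% of promoters. A second start of RNF43 had 0. The 3 other genes with reads were richer, with 30 CG before ARID1A, 27 before KDM6A and 25 before SMAD4. No methylation was measured, and any link between the number of CG and the missing reads was not tested.

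CDKN2A and CDKN2B are related genes, so reads could be shared between them (GENCODE 29 transcripts). Stretches of 50 bases that recur in another gene made up 7.17% of those of CDKN2A, mainly with CDKN2B-AS1, and 0.765% of those of CDKN2B, all of them with CDKN2A. The other stretches of both genes were found in no other annotated gene.

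CDKN2A and CDKN2B had 0 reads in control, 0 in Rg3 and 0 in TAM. RNF43 had 0 reads in control, 1 in Rg3 and 0 in TAM. A count of 0 allows up to 3 reads, or 0.265 CPM (the usual scaling of counts to the library total) in control, 0.233 in Rg3 and 0.265 in TAM. For these 3 genes neither presence nor a response to Rg3 or TAM was detectable at this depth, and they took no part in the fold changes.

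RNF43 needs a further limit, because 71.0% of its 50-base stretches recur in other annotated genes. The overlapping AC004687.2 alone holds 55.7% of all its stretches. Exons of other genes cover 59.5% of its exonic bases on the same strand and 20.3% on the opposite strand. Of these, SUPT4H1, which encodes a transcription elongation factor, had 762 reads in control, 954 in Rg3 and 817 in TAM. The rule by which overlapping reads were counted is not given in the sources used here, and its part in the near absence of RNF43 was not tested.

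The other 4 genes were read in every library. ARID1A had 1695 reads in control, 1800 in Rg3 and 882 in TAM. SMAD4 had 193, 327 and 131 reads, KDM6A had 120, 270 and 51, and MTAP had 248, 254 and 261, each in that order. SMAD4 and KDM6A were both highest in Rg3 and lowest in TAM, ARID1A was lowest in TAM, and MTAP was nearly level.

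**Figure D1:**
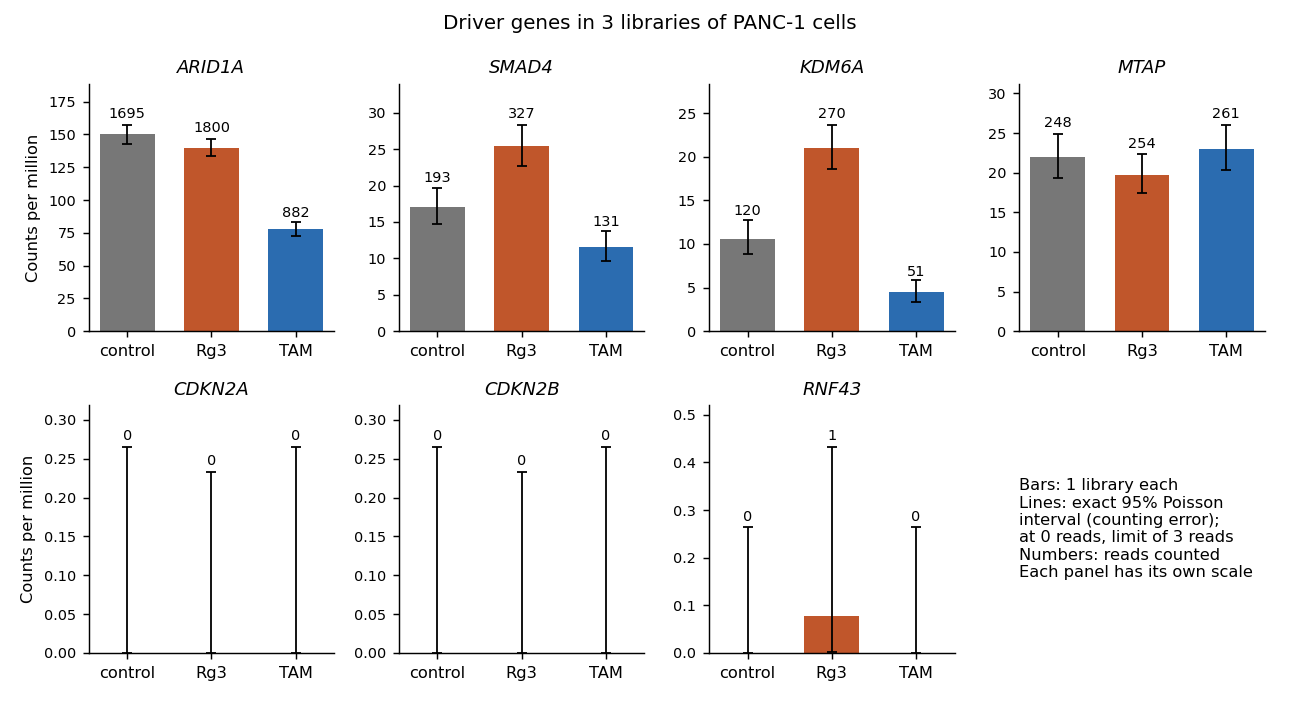
Level of each driver gene in CPM (vertical axis, linear, own scale in each panel) in the control, Rg3 and TAM libraries. Bars are single libraries, lines are exact 95% Poisson intervals (for 0 reads, the limit of 3 reads) and the numbers are reads counted; KDM6A ran from 51 reads in TAM to 270 in Rg3, MTAP stayed between 248 and 261, and CDKN2A and CDKN2B had 0 throughout.

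Levels were compared between genes as CPM per kilobase of the longest annotated transcript, with exact 95% Poisson intervals. In control, ARID1A stood at 17.5 (16.7 to 18.3), MTAP at 2.90 (2.55 to 3.29), SMAD4 at 1.95 (1.68 to 2.24) and KDM6A at 1.79 (1.49 to 2.14) on this scale, and the intervals of SMAD4 and KDM6A overlapped. In Rg3, ARID1A was at 16.3 (15.6 to 17.1), KDM6A at 3.54 (3.13 to 3.99), SMAD4 at 2.90 (2.59 to 3.23) and MTAP at 2.61 (2.30 to 2.96), with SMAD4 overlapping both of its neighbors in the order. In TAM, the levels were 9.08 (8.49 to 9.70) for ARID1A, 3.05 (2.69 to 3.44) for MTAP, 1.32 (1.10 to 1.57) for SMAD4 and 0.760 (0.566 to 1.00) for KDM6A, and no neighbors overlapped. ARID1A was thus the highest of the 7 genes in each library, and its level exceeded that of 80.4% of detected genes in control, 78.9% in Rg3 and 71.7% in TAM.

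Per-kilobase levels depend on the transcript used. With the median transcript length of each gene the control levels became 55.6 for ARID1A, 21.9 for SMAD4, 21.3 for MTAP and 3.01 for KDM6A. ARID1A stayed first and KDM6A last in control, while SMAD4 and MTAP changed places. In Rg3 the levels became 51.9 for ARID1A, 32.6 for SMAD4, 19.2 for MTAP and 5.94 for KDM6A, which went from second to last. In TAM they were 28.9 for ARID1A, 22.4 for MTAP, 14.9 for SMAD4 and 1.28 for KDM6A, the same order as before. The order of MTAP, SMAD4 and KDM6A thus rests on the transcript chosen.

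For a fold change, libraries were scaled with TMM factors, and a gene was called when it lay over 1.5-fold higher or under 0.67-fold lower, the fold limits used in the study. Of all genes compared, 44.3% were called in Rg3 (25.0% higher, 19.3% lower) and 40.9% in TAM (17.4% higher, 23.5% lower). Of the 4 driver genes with reads, 1 was called in Rg3 and 2 in TAM, which is near this background. A counting interval that also left out no change was met by 36.8% of genes in Rg3 and 33.3% in TAM, and by the same driver genes. Both comparisons use the same control library. TMM scaling moved all log2 fold changes by -0.14 in Rg3 and by 0.21 in TAM relative to library totals.

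Fold changes followed base composition across genes. Over genes with at least 50 reads, the log2 fold change and the GC content of the longest transcript had a Spearman correlation of -0.81 in Rg3 (11584 genes) and 0.51 in TAM (11023 genes). The correlation with transcript length was 0.20 in Rg3 and -0.45 in TAM. Genes of 1 library share its depth and preparation and are not replicates, so these values are descriptions. Each driver gene is therefore given below with the trend value for its GC content and length and with the difference from that trend, both as log2 values. Relative to the trend, 8.84% of genes were called higher and 9.85% lower in Rg3, and 14.1% higher and 15.1% lower in TAM, and 1 driver gene was called in each.

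**Figure D2:**
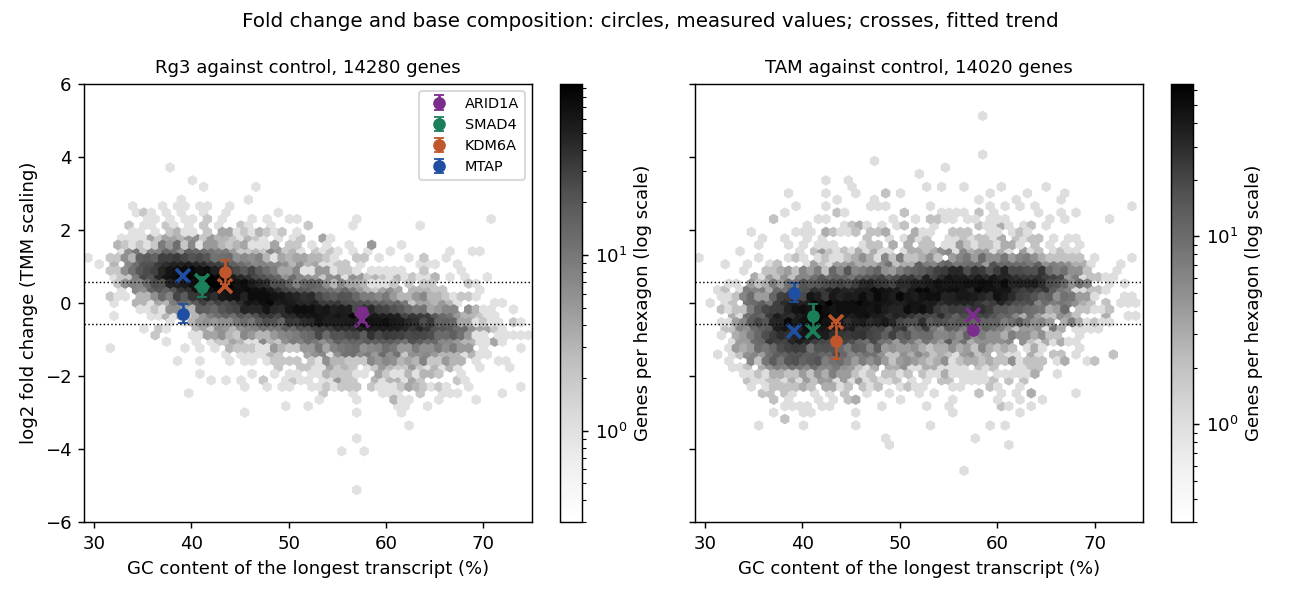
Log2 fold change (vertical axis, TMM scaling) against GC content of the longest transcript (horizontal axis, percent) for all genes compared, as hexagons shaded by number of genes on a log scale, in Rg3 (left) and TAM (right). Colored circles with 95% counting intervals are the measured driver genes, crosses are the trend at their GC content and length, and dotted lines are the 1.5-fold limits; MTAP lies 1.03 below its cross in Rg3 and 1.05 above it in TAM.

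KDM6A had the largest measured fold change of the driver genes in both comparisons. It was 1.79-fold higher in Rg3, a log2 fold change of 0.84 (95% counting interval 0.53 to 1.17), and 0.49-fold in TAM, a log2 fold change of -1.03 (-1.53 to -0.54). Both values passed the fold limit, and 86.2% of compared genes had a lower value in Rg3 but only 10.8% in TAM. The KDM6A transcript has a GC content of 43.5%, and the trend at this GC content and its length was 0.46 in Rg3 and -0.53 in TAM. The difference from the trend was 0.39 in Rg3 and -0.49 in TAM, so neither call was kept. Of its 50-base stretches, 0.416% recur in another gene.

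The genes that work with or against KDM6A were described from a list of 13, all of which were compared. In Rg3, 2 were called higher and 0 lower, with a median log2 fold change of 0.09, and in TAM 1 was higher and 4 were lower, with a median of -0.27. The medians over all genes were 0.04 and -0.02. Among all genes compared, 25.0% were called higher and 19.3% lower in Rg3, and 17.4% and 23.5% in TAM. In this list the shares were 15.4% and 0% in Rg3 and 7.69% and 30.8% in TAM. SUZ12, a core subunit of the PRC2 complex that writes the mark KDM6A removes, had 289 reads in control and 637 in Rg3, the highest value of the list at 0.81 (0.61 to 1.02). KMT2C, the methyltransferase of the MLL3 complex, went from 231 reads in control to 57 in TAM, a log2 fold change of -1.81 (-2.26 to -1.39). PAGR1, a subunit of the MLL3 and MLL4 complexes, had 828 reads in control, 779 in Rg3 and 1384 in TAM, the lowest value of the list in Rg3 at -0.41, not called, and the highest in TAM at 0.95 (0.82 to 1.07). With the trend removed, 0 of the 13 were called in Rg3 and 1, KMT2C at -0.92, in TAM. Relative to the trend, 8.84% of all genes were higher and 9.85% lower in Rg3, and 14.1% and 15.1% in TAM.

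ARID1A was lower in TAM and was not called in Rg3. Its log2 fold change was -0.74 in TAM (-0.86 to -0.62), a level 0.600-fold that of control, and -0.24 in Rg3 (-0.34 to -0.14). Its transcript is GC-rich at 57.5%, and the trend at its GC content and length was -0.34 in TAM and -0.48 in Rg3. The difference from the trend was -0.40 in TAM, inside the fold limit, and 0.24 in Rg3. With the trend drawn on the mean GC content and median length over transcripts, an alternative chosen after the data were seen, ARID1A was at -0.69 in TAM, past the limit, and at 0.04 in Rg3. In TAM, where genes of high GC content tended to be higher, ARID1A was lower, and the trend value below 0 there includes its length.

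Of the other BAF and PBAF subunits, 23 of 24 were compared. In Rg3, 1 was called higher and 4 lower, with a median log2 fold change of -0.29, and in TAM 1 was higher and 7 were lower, with a median of -0.35. These calls were 4.35% higher and 17.4% lower in Rg3, and 4.35% and 30.4% in TAM. The shares over all genes were 25.0% and 19.3% in Rg3 and 17.4% and 23.5% in TAM. ARID2, which takes the place of ARID1A in the PBAF complex, had 214 reads in control, 430 in Rg3 and 55 in TAM, the highest value of the list in Rg3 at 0.68 (0.44 to 0.92) and the lowest in TAM at -1.75 (-2.21 to -1.32). ARID1B, the paralog of ARID1A, had 841, 1082 and 432 reads, with a log2 fold change of 0.04 in Rg3 and -0.75 in TAM. GLTSCR1, now BICRA, of a BAF variant without ARID subunits, had 85 reads in control and 42 in Rg3, at -1.34 (-1.91 to -0.79). It was called lower in TAM too, with 38 reads, at -0.96 (-1.55 to -0.39). BCL7C, a small accessory subunit, had 749 reads in control and 1123 in TAM, at 0.79 (0.66 to 0.93). With the trend removed 0 were higher and 3 lower in Rg3, of which 1 had been called before, and 0 were higher and 4 lower in TAM, of which 3 had been. The shares over all genes were then 8.84% higher and 9.85% lower in Rg3, and 14.1% and 15.1% in TAM. ARID2 then stood at 0.05 in Rg3 and -0.99 in TAM, GLTSCR1 at -0.52 in Rg3 and -0.97 in TAM, and BCL7C at 0.42 in TAM.

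SMAD4 was not called in either comparison. Its log2 fold change was 0.43 in Rg3 (0.17 to 0.70) and -0.35 in TAM (-0.68 to -0.03), and neither interval included 0. At its GC content of 41.1% and its length, the trend was 0.60 in Rg3 and -0.77 in TAM. Relative to it SMAD4 was at -0.17 in Rg3 and 0.41 in TAM, the opposite signs of the measured values. With the trend on mean GC content and median length it was at -0.22 in Rg3 and 0.05 in TAM. The overlapping AC091551.1 shares 5.84% of its 50-base stretches.

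All 17 listed receptors, SMAD proteins and SMAD regulators were compared. In Rg3, 6 were called higher and 1 lower, with a median log2 fold change of 0.39, and in TAM 1 was higher and 9 were lower, with a median of -0.62. These calls were 35.3% higher and 5.88% lower in Rg3, and 5.88% and 52.9% in TAM. The shares over all genes were 25.0% and 19.3% in Rg3 and 17.4% and 23.5% in TAM. TRIM33, a ubiquitin ligase that acts on SMAD4, had 102 reads in control and 247 in Rg3, at 0.95 (0.61 to 1.30). SMAD3, a receptor-activated SMAD that binds SMAD4, had 5671 reads in control and 4324 in Rg3, at -0.72 (-0.78 to -0.66). SMAD3 was called lower in TAM too, with 3204 reads, at -0.62 (-0.68 to -0.55). SMAD7, the inhibitory SMAD, had 131 reads in control and 205 in TAM, at 0.85 (0.53 to 1.18), and the BMP type II receptor BMPR2 had 405 and 116, at -1.60 (-1.91 to -1.30). With the trend removed the medians were -0.12 and -0.18, and 0 genes were higher and 2 lower in Rg3, against 2 higher and 3 lower in TAM. Of these, 1 in Rg3 and 4 in TAM had been called before. The trend-removed shares over all genes were 8.84% higher and 9.85% lower in Rg3, and 14.1% and 15.1% in TAM. SMAD3 at -0.64 in Rg3 and SMAD7 at 0.73 and BMPR2 at -0.76 in TAM were still past the limit, and TRIM33 at 0.22 in Rg3 was not. In TAM, SMAD3 at -0.34 was inside the limit.

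MTAP was not called, and it moved against the trend in both comparisons. Its log2 fold change was -0.29 in Rg3 (-0.55 to -0.03) and 0.28 in TAM (0.02 to 0.54). Division by library totals gave -0.15 and 0.07. Its longest transcript has a GC content of 39.1%, and the trend at this GC content and its length was 0.73 in Rg3 and -0.77 in TAM. The differences from the trend, -1.03 and 1.05, were the only ones among the 4 driver genes past the fold limit. The GC content of its 14 annotated transcripts ran from 38.5% to 52.6%. With the trend on mean GC content and median length the differences were -0.86 and 0.59.

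Among 16 genes of methionine salvage, polyamine synthesis and the methylosome, pathways that make or respond to methylthioadenosine or recycle it, 15 were compared. In Rg3, 4 were called higher and 2 lower, with a median log2 fold change of -0.02, and in TAM 2 were higher and 0 lower, with a median of 0.23. These calls were 26.7% higher and 13.3% lower in Rg3, and 13.3% and 0% in TAM. The shares over all genes were 25.0% and 19.3% in Rg3 and 17.4% and 23.5% in TAM. AMD1, which makes the aminopropyl donor for polyamines, had 991 reads in control, 2247 in Rg3 and 629 in TAM, with log2 fold changes of 0.85 (0.75 to 0.96) and -0.45, the latter not called. SRM, spermidine synthase, had 3432 reads in control and 2488 in Rg3, at -0.79 (-0.87 to -0.72). ADI1, a dioxygenase of the salvage pathway after MTAP, had 489 reads in control and 689 in TAM, at 0.70 (0.53 to 0.87), and at 0.98 with the trend removed. The trend-removed calls were 0 higher and 0 lower in Rg3 and 2 higher and 0 lower in TAM. Over all genes they were 8.84% higher and 9.85% lower in Rg3, and 14.1% and 15.1% in TAM. PRMT5, the methyltransferase on which cells without MTAP depend, had 2223, 2127 and 2705 reads and was not called.

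In the choice of genes, MTAP and CDKN2A were described as lying at a locus deleted in PANC-1, which the study does not mention. MTAP had at least 248 reads in each library and CDKN2A had 0. RNA reads do not measure copy number, so a deletion was not tested. Of the MTAP pseudogenes, MTAPP1 had 0 reads and MTAPP2 had 14 to 18, and 9.24% of the 50-base stretches of MTAP recur in other genes. The table gives 1 count for each gene, so where along MTAP the reads lay was not seen. Per kilobase of the longest transcript and against the limit of 3 reads per library, CDKN2A was at least 14-fold lower than the measured level of MTAP in control, 14.4-fold in Rg3 and 14.8-fold in TAM. CDKN2B was at least 42.8-fold lower in control, 43.8-fold in Rg3 and 45.0-fold in TAM. The counting error of MTAP is not part of these bounds.

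The listed genes around them were read off along chromosome 9 (GRCh38.p14, RefSeq positions). MTAP spans chr9:21802636-21941115, CDKN2A chr9:21967752-21995324 and CDKN2B chr9:22002903-22009313, and 26.6 kb separate MTAP from CDKN2A. Toward the telomere, MIR31HG, the host of a microRNA, had 179 reads in control, 156 in Rg3 and 332 in TAM, and lies 242.8 kb from MTAP. KLHL9, an adaptor of a ubiquitin ligase, had 196, 320 and 113 reads, FOCAD had 335, 617 and 159, and MLLT3, a chromatin reader of the super elongation complex, had 47, 131 and 24. Toward the centromere, CDKN2B-AS1 had 0 reads in every library, DMRTA1, 437.5 kb beyond CDKN2B, had 8, 14 and 5, TUSC1 had 8, 15 and 5, and ELAVL2, a neuronal RNA-binding protein gene, had 0. Farther out, CAAP1 had 75, 127 and 52 reads, PLAA had 107, 196 and 82, and IFT74, of the ciliary transport machinery, had 22, 45 and 14. Other non-coding genes of the window, some of them with reads, stand as unlabelled triangles in the plot of the window. The protein-coding genes nearest to CDKN2A and CDKN2B that had reads were therefore MTAP on one side and DMRTA1 on the other.

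A count of 0 was common in this window. From MLLT3 to IFT74, over 6.72 Mb, 49 of 72 genes in the table had 0 reads in every library, and so did 21 of 31 protein-coding genes, 15 of which were interferon genes. Over all of the genes counted, 49% had 0 reads, and 21% of the protein-coding ones.

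Beside MTAP, MIR31HG had the same signs. Its log2 fold change was -0.53 in Rg3 (-0.84 to -0.21) and 1.10 in TAM (0.83 to 1.37), with only the latter called. FOCAD and KLHL9 had the opposite signs, at 0.55 and -0.87 for FOCAD and at 0.38 and -0.59 for KLHL9. MIR31HG has a GC content of 56.9%, FOCAD 45.5% and KLHL9 39.3%, and their differences from the trend, in the same order, were -0.17, 0.25 and -0.36 in Rg3 and 0.79, -0.40 and 0.09 in TAM. With the trend removed MIR31HG and KLHL9 thus had the signs of MTAP, and FOCAD did not. The 0.09 of KLHL9 in TAM is small beside the width of the counting interval of its measured -0.59, which is -0.94 to -0.25. Farther out, CAAP1 (-0.39 in Rg3 and 0.04 in TAM) and PLAA (-0.05 and 0.24) also had these signs. MLLT3 (0.37 and 0.00) and IFT74 (0.10 and -0.22) did not. The 0.04 of CAAP1 and the -0.05 of PLAA are also small beside the widths of the measured intervals, -0.86 to 0.21 and 0.20 to 0.90. The same holds for the 0.00 of MLLT3 and the 0.10 of IFT74, so these signs are not settled.

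**Figure D3:**
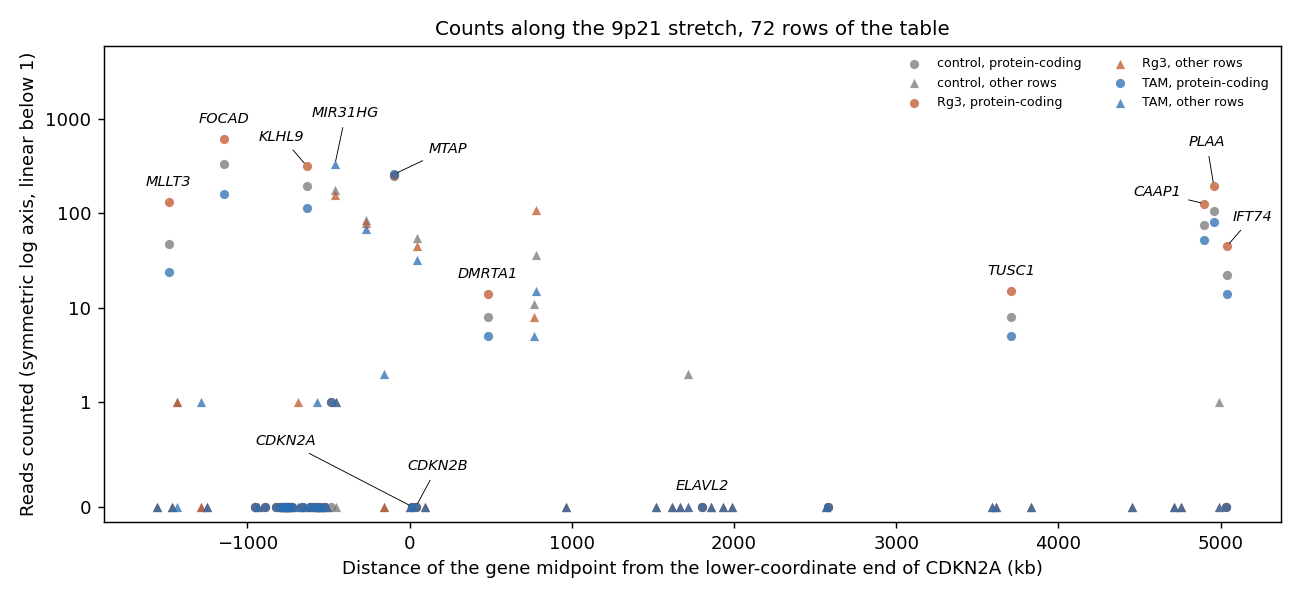
Reads counted (vertical axis, symmetric log scale, linear below 1) for 72 genes of the window against the distance of the gene midpoint from the lower-coordinate end of CDKN2A (horizontal axis, kb). Circles are protein-coding genes and triangles other genes, colored by library; MTAP, with 248 to 261 reads, lies beside CDKN2A and CDKN2B, which had 0.

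Downstream of CDKN2A and CDKN2B, 14 of 15 listed genes of the RB axis were compared. In Rg3, 3 were called higher and 1 lower, with a median log2 fold change of 0.21, and in TAM 5 were higher and 6 lower, with a median of -0.02. These calls were 21.4% higher and 7.14% lower in Rg3, and 35.7% and 42.9% in TAM. The shares over all genes were 25.0% and 19.3% in Rg3 and 17.4% and 23.5% in TAM. MDM2, the ubiquitin ligase that p14ARF restrains, had 197 reads in control and 458 in Rg3, at 0.89 (0.65 to 1.14), and the transcription factor E2F1, released when RB is phosphorylated, had 802 and 623, at -0.69 (-0.84 to -0.54). RB1 itself had 160 reads in control and 47 in TAM, the lowest value there at -1.56 (-2.06 to -1.08). CDKN1A, the kinase inhibitor p21, had 948 and 1730, the highest at 1.07 (0.96 to 1.19). CDK4, the kinase that p16INK4a binds, had 3233 reads in control, 3799 in Rg3 and 5873 in TAM, at -0.09 and 1.07. Of the relatives of CDKN2A, CDKN2C had 764, 871 and 1359 reads and CDKN2D had 166, 240 and 158. With the trend removed 2 genes were higher and 0 lower in Rg3, neither of them called before, and MDM2 stood at 0.33 and E2F1 at -0.01. In TAM 3 were then higher and 2 lower, all called before, with RB1 at -0.93 and CDKN1A at 0.70. The trend-removed shares over all genes were 8.84% higher and 9.85% lower in Rg3, and 14.1% and 15.1% in TAM.

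Around RNF43, 19 of 25 listed genes of Wnt receptor turnover were compared. In Rg3, 5 were called higher and 4 lower, with a median log2 fold change of 0.37, and in TAM 2 were higher and 9 lower, with a median of -0.58. These calls were 26.3% higher and 21.1% lower in Rg3, and 10.5% and 47.4% in TAM. The shares over all genes were 25.0% and 19.3% in Rg3 and 17.4% and 23.5% in TAM. The 6 that were not compared were the receptors LGR5 and LGR6 and the ligands RSPO1, RSPO2, RSPO3 and RSPO4, which together switch RNF43 off, and each had at most 2 reads in a library. ZNRF3, the paralog of RNF43 with the same substrate receptors, had 159, 154 and 92 reads, and LGR4 had 401, 707 and 149. FZD6, a Frizzled receptor, had 248 reads in control and 750 in Rg3, at 1.27 (1.06 to 1.48), and AXIN2, a feedback target of Wnt signaling, had 67 and 35, at -1.26 (-1.90 to -0.65). In TAM both were called lower, FZD6 with 87 reads at -1.31 and AXIN2 with 28 reads at -1.05 (-1.74 to -0.40). With the trend removed AXIN2 was at -1.08 in TAM. FZD8, another Frizzled receptor, had 139 reads in control and 217 in TAM, at 0.85 (0.54 to 1.17), and APC, of the beta-catenin destruction complex, had 152 and 44, at -1.58 (-2.10 to -1.09). Without the trend, 0 genes were higher and 1 lower in Rg3, the latter AXIN2 at -0.97, and 4 were higher and 7 lower in TAM, of which 2 and 6 had been called before. The shares over all genes were then 8.84% higher and 9.85% lower in Rg3, and 14.1% and 15.1% in TAM.

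**Figure D4:**
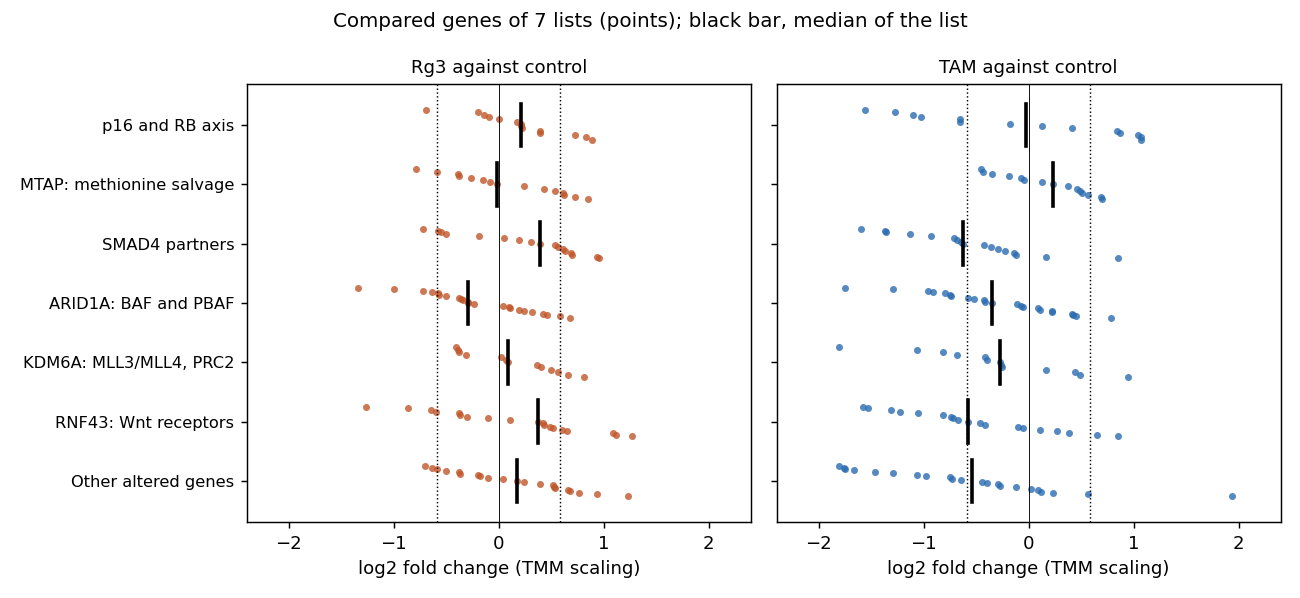
Log2 fold change (horizontal axis, TMM scaling) of each compared gene of 7 lists (points) with the median of the list (black bar), in Rg3 (left) and TAM (right). Dotted lines are the 1.5-fold limits; in Rg3 the medians run from -0.29 for BAF and PBAF to 0.39 for the SMAD4 partners, and in TAM from -0.62 for the SMAD4 partners to 0.23 for methionine salvage.

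Genes with a pattern most like each driver gene were sought among 9765 genes by the Euclidean distance between their pairs of log2 fold changes in Rg3 and TAM, over 3 libraries. KDM6A was nearest to ECT2 at a distance of 0.014, then to KIDINS220 and FNDC3A, both at 0.021. SMAD4 was nearest to COPS8 at 0.004, followed by the pseudogenes BTF3L4P2 at 0.017 and MEMO1P1 at 0.023. MTAP was nearest to the pseudogene RPS14P3 at 0.011, then to RPS15AP11 and ABCC10, both at 0.013, and ARID1A to SIK3 at 0.032, TMX2-CTNND1 at 0.042 and SVIL at 0.051. All these distances are small beside the counting intervals, such as -1.53 to -0.54 for KDM6A in TAM. Which genes stand nearest, and in which order, is therefore not settled by these counts. The GC content of these neighbors, in the same order, was 38.0%, 43.2% and 38.9% for KDM6A, against its own 43.5%. It was 41.1%, 39.3% and 43.6% for SMAD4, against 41.1%, and 50.4%, 55.6% and 49.8% for ARID1A, against 57.5%. For MTAP, at 39.1%, RPS15AP11 has 46.5% and ABCC10 58.7%, and RPS14P3 had no value.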

How the data were processed

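RNA of PANC-1 cells was sequenced on an Ion Proton instrument in 3 libraries, 1 per condition, grouped by their labels. The authors used TopHat for alignment, and the deposited values are raw counts for each gene symbol, not normalized. The submitters' processing notes name GRCh38, and the counting tool, annotation and use of strand are not given in the sources used here.

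From these counts, log2 fold changes against control were derived in Python 3.11.15. Scaling was by TMM in edgeR 4.0.16 under R 4.3.3, with factors of 1.02 (control), 1.12 (Rg3) and 0.879 (TAM). Comparison required at least 10 counts in either library, and counts under 3 were raised to 3. A call was a fold past 1.5 or under 0.67. Intervals for folds are exact Clopper-Pearson intervals of the share of reads at 95%, and those for levels are exact Poisson intervals. The study's limma criterion and edgeR's quasi-likelihood test need replicates and could not be fitted, so no p-value is given.

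The longest GENCODE 29 transcript gave GC content and length, for 86.6% of genes compared in Rg3 and 87.2% in TAM. The trend was a loess fit (span 0.3) on GC content and log length over those genes. Positions and start-site sequences were from RefSeq. Alternatives were library totals, DESeq2 1.42.0 size factors, removal of the trend, filters of 1 or 50 counts, a counting interval or a fold past 2 in the call, median transcript length, and TMM factors in the level. The fold and trend steps were tried on counts simulated with Poisson error, a known scaling and a trend on GC content alone. TMM scaling and a trend on length were not tested in this way.

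Named genes were the 7 driver genes, the highest and lowest compared gene of each list with at least 50 counts in either library, paralogs and partners of the driver genes, the 3 nearest genes in pattern with at least 100 control counts, and the listed neighbors on chromosome 9. The members and lists were chosen with earlier results of these data known.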

Additional observations from a re-analysis of the deposited data

How the results depend on the processing

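No paired analysis was possible because there was 1 library per condition, and no library could be left out. Of the driver genes' calls, KDM6A higher in Rg3 and lower in TAM and ARID1A lower in TAM held under library totals and DESeq2 size factors, and all were lost when the GC and length trend was removed. Removing it gave log2 fold changes in Rg3 and TAM of -1.03 and 1.05 for MTAP, -0.17 and 0.41 for SMAD4, 0.24 and -0.40 for ARID1A, and 0.39 and -0.49 for KDM6A. With the trend on mean GC and median length, chosen after the data were seen, the values were -0.86 and 0.59 for MTAP, -0.22 and 0.05 for SMAD4 and 0.22 and -0.37 for KDM6A, and ARID1A was at 0.04 in Rg3 and, still called, at -0.69 in TAM. Library totals put ARID1A at -0.10 in Rg3 and -0.95 in TAM. Without the trend 1263 genes were higher and 1406 lower in Rg3, and 2116 lower in TAM. Of the listed genes, 113 were compared in Rg3 and 114 in TAM. Without the trend 3 were higher and 6 lower in Rg3 and 21 lower in TAM, against 23, 14 and 41 with it. The latter were 20.4%, 12.4% and 36% of those compared, against 25.0%, 19.3% and 23.5% over all genes. With the trend removed, the shares over all genes were 8.84%, 9.85% and 15.1%. Listed genes higher in TAM went only from 13, or 11.4%, to 12, against 17.4% and then 14.1% over all genes. Library totals gave 35 listed genes higher and 5 lower in Rg3, where 5180 and 2279 of all 16487 genes compared were higher and lower. In TAM they gave 1576 genes higher. With at least 50 counts, 2099 genes were lower in Rg3 and 2498 in TAM. Past 2-fold, 1470 genes were higher and 1149 lower in Rg3 and 862 and 1824 in TAM, with 4 and 2 listed genes in Rg3 and 4 and 21 in TAM. The cause of these shifts was not tested, beyond the fewer genes that a stricter filter or fold admits. Counting error alone limits genes of few reads, such as the 51 of KDM6A in TAM, and the spread between cultures was not measured.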

Other observations

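Of 22 other genes recurrently altered in pancreatic cancer, some of which also stand in the lists above, 21 were compared in Rg3 and 22 in TAM. In Rg3, 5 were called higher and 3 lower, with a median log2 fold change of 0.17, and in TAM 1 was higher and 11 were lower, with a median of -0.54. Over all genes compared, 25.0% were higher and 19.3% lower in Rg3, and 17.4% higher and 23.5% lower in TAM. MAP2K4, a kinase upstream of JNK, had 158 reads in control and 464 in Rg3, at 1.23 (95% counting interval 0.96 to 1.5), and was at 0.62 with the GC and length trend removed. STK11, the kinase LKB1, had 1088 reads in control, 839 in Rg3 and 1402 in TAM, at -0.70 (-0.83 to -0.57) and 0.57, the latter not called. KMT2C was the lowest in TAM at -1.81. The single gene called higher in TAM was ROBO2, named after its value was seen, with 1 read in control and 10 in TAM. With the trend removed, 1 gene was higher and 0 lower in Rg3, and 1 was higher and 6 were lower in TAM, against 8.84% higher and 9.85% lower over all genes in Rg3 and 14.1% and 15.1% in TAM.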
